A study of Mus musculus with 6 samples.

Results

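The genes described here are 10 genes of antigen presentation by the major histocompatibility complex (MHC), taken by symbol from the 23284 genes listed for each sample. Class I was represented by *B2m*, *H2-K1*, *H2-D1*, *Tap1*, *Tap2*, *Tapbp*, *Psmb8* and *Psmb9*, and class II by *H2-Aa* and *Cd74*. All 10 were listed in every sample and passed the filter on low values. They were measured in ECFP+ osteoblasts (OBs) sorted from ectopic bone of male *Col2.3*-ECFP mice, 12 to 16 weeks old, in which a fragment of the type I collagen promoter drives a cyan fluorescent protein. Every mouse had received a subcutaneous collagen sponge with 2.5 μg of BMP-2, so both groups share the transgene and the implant, and no group lacks BMP-2. OBs were collected on day 10 (n = 3) and on day 14 (n = 3) after implantation. Trypsin was followed by 1 collagenase II digestion for the day 10 bone and by 2 for the day 14 bone. Effects of day and of digestion cannot be told apart. The sort left out cells positive for CD45, the surface antigen of blood-derived cells, and dead cells. The titles place all later samples on day 14, whereas the free-text descriptions of replicates 2 and 3 give day 15 and day 16. Whether an implant or a pool of implants made 1 sample is not given in the sources used here, so the p-values measure the spread between these samples.

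The estimated depth ran from 4550000 to 7780000 mapped reads per sample, so that 3 reads on a transcript of 1 kilobase equal between 0.386 and 0.659 FPKM, the deposited unit, which scales reads by transcript length and by library depth. All 10 OB markers examined were above 0 in every sample, with *Col1a1* between 14151 and 34157 FPKM. All 10 nevertheless had a lower mean on day 14 (median log2 fold change −1.49). Of them 7, together with 6 of 8 cartilage markers, were over 2-fold lower (8.39% of all genes tested). In either list limma called 0 at an adjusted p below 0.05. An unadjusted p under 0.05 was found for 2 of 10 and 2 of 8, each with a lower mean (4.40% of all genes). *Sp7*, which encodes an osteoblast transcription factor, had 73.7, 51.1 and 40.1 FPKM on day 10 and 9.79, 27.9 and 4.09 FPKM on day 14. It was the only OB marker that was lower in every day 14 sample than in any day 10 sample. The part of these shifts in the values of the members was not tested. Replicate 2 of day 14 stood apart from the other samples of its day. It had the highest value of that day in 10 of 10 OB markers and in 8 of 8 cartilage markers, and the lowest in 17 of 17 myeloid and dendritic cell markers. The fold changes of the members and the counts over the lists of presentation, regulatory and myeloid genes are therefore also given without it.

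MHC class I molecules are found on nearly all nucleated cells. A heavy chain, encoded in the mouse by genes such as *H2-K1* and *H2-D1*, pairs with β2-microglobulin (*B2m*) and displays short peptides from proteins made inside the cell to CD8+ T cells. Those peptides are cut by the proteasome, whose catalytic subunits can be exchanged for the interferon-inducible subunits encoded by *Psmb8* and *Psmb9*, and are pumped into the endoplasmic reticulum by the transporter TAP (*Tap1* and *Tap2*), where tapasin (*Tapbp*) helps to load them. Class II molecules, for which *H2-Aa* encodes the α chain and *Cd74* the invariant chain that guards the binding groove, display peptides from engulfed proteins to CD4+ T cells and are typical of dendritic cells, macrophages and B cells.

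Class I promoters are known for a κB element, and the promoters of both classes for an X2 and Y box module in which a TGACG-type sequence lies upstream of an inverted CCAAT box (ATTGG). The 250 bases before the RefSeq start of *B2m* (chr2:122147437-122147686, plus strand), *H2-K1* (chr17:34000348-34000597, minus strand) and *H2-Aa* (chr17:34287824-34288073, minus strand) are shown, because they hold this module for the light chain, a class I heavy chain and a class II chain. They are written 5′ to 3′ on the gene's strand in GRCm38.p6. Capitals mark matches, on either strand, to an interferon-response core (GAAA, any 2 bases, GAAA), a κB sequence (GGG, any 2 bases, TT, any base, CC), TGACG and CCAAT. In the H2-Aa promoter TGACG overlaps its own reverse complement.
B2m: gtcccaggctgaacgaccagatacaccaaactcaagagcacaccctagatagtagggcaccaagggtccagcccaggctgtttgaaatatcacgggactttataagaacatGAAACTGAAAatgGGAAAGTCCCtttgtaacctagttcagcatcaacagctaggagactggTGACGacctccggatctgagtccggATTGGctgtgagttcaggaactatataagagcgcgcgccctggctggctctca
H2-K1: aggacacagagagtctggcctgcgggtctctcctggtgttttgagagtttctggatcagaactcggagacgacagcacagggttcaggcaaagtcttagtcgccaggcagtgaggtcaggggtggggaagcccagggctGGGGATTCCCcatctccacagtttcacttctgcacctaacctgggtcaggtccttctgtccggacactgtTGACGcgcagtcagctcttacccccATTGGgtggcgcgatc
H2-Aa: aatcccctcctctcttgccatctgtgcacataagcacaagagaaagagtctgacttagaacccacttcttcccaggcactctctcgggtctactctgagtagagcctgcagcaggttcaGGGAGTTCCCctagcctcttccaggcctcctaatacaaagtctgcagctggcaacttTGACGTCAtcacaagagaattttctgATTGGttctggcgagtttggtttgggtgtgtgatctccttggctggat

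In the *B2m* and *H2-K1* promoters 20 bases separated TGACG from ATTGG, and in the *H2-Aa* promoter 21 bases did. The *H2-D1* promoter also had the module with a gap of 20 bases, and 177 aligned bases of the *H2-K1* and *H2-D1* promoters were 91.0% identical. TGACG followed by ATTGG after 10 to 25 bases was present in 4 of the 8 member promoters in the table and in 0.574% of 27025 mouse promoters of the same length. The κB sequence was found in the same 4 promoters and in 4.004% of all promoters. The interferon-response core, in its exact letters, was found in the *B2m* promoter alone among the 8, and in 3.04% of all promoters. Related sequences that depart from these letters were not counted, so the other promoters are not shown to lack an interferon-response element. TGACG stood in 6 and CCAAT in 7 of the 8, against 17.9% and 34.5% of all promoters. Among 57 other listed genes, the spaced module was found in *H2-Q7*, *H2-M3* and *Jak1*. The motifs and the gap were chosen with these sequences in view, and a match describes letters, not a bound site.

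On day 10 the class I chains were already among the higher genes of these cells. *B2m* (597 ± 63.0 FPKM, SD, n = 3) ranked 76 of all genes listed, and its samples had 560.0, 561 and 669.8 FPKM. *H2-D1* followed at 211 ± 8.79 FPKM (SD, n = 3), *H2-K1* at 113 ± 10.5 FPKM (SD, n = 3) and *Tapbp* at 96.6 ± 13.2 FPKM (SD, n = 3). The samples of *B2m* lay above those of *H2-D1*, and those of *H2-D1* above those of *H2-K1*, whereas *H2-K1* and *Tapbp* overlapped. The other members were lower, at 21.3 ± 12.9 FPKM for *Psmb8*, 18.0 ± 11.5 for *Cd74*, 13.4 ± 1.97 for *Tap2*, 7.55 ± 3.02 for *Tap1*, 6.58 ± 3.89 for *H2-Aa* and 3.48 ± 3.35 for *Psmb9* (each SD, n = 3). In this lower group, neighbours in the order overlapped except *Tap2* and *Tap1*. On day 14 every neighbouring pair of members in the order of means overlapped.

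Each of the 10 genes had a higher mean on day 14, and no member passed the adjusted test. At an adjusted p below 0.05 limma called 0 members and 3 of the 19526 genes tested (0.0154%). An unadjusted p under 0.05 with a higher mean on day 14 was found for the 8 class I genes and neither class II gene, beside 5.60% of all genes tested, and 0 members had one with a lower mean (4.40% of all genes). That count of 8 was 4 without replicate 1 of day 10 or of day 14, and 5 without replicate 2 of day 10 or replicate 3 of day 14. A fold change over 2 was found for 9 members (5.25% of all genes), *Tap2* being the exception, and 0 members were over 2-fold lower (8.39%). Fully separated days were found for 4 members, *B2m*, *H2-K1*, *H2-D1* and *Tapbp* (7.59% of all genes), and 0 members were lower in every day 14 sample (6.67%). Replicate 2 of day 14 had the lowest value of its day in all 8 class I and both class II genes. Its removal could therefore only raise their day 14 means. Without replicate 3 of day 10, 8 members were separated (12.9% of all genes). Without replicate 2 of day 14, all 10 members were separated (15.3% of all genes). The adjusted p from limma was then 0.0235 for *H2-Aa*, 0.0265 for *H2-D1*, 0.0276 for *H2-K1* and 0.0419 for *Tapbp*, among 76 genes called. The log2 fold changes of *H2-Aa* and *Cd74* were then 3.72 and 3.69, against 1.19 and 1.05 without replicate 3 of day 14 and 1.45 and 1.32 without replicate 1 of day 14. Without replicate 1 of day 10 that of *Cd74* was 1.31. For the class I genes, the values without replicate 2 of day 14 were 1.78 for *B2m*, 2.195 for *H2-K1*, 2.31 for *H2-D1*, 1.49 for *Tap1*, 1.07 for *Tap2*, 1.24 for *Tapbp*, 1.67 for *Psmb8* and 2.85 for *Psmb9*.

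The chains that form the class I molecule had higher values in every day 14 sample than in any day 10 sample. For *B2m*, on chromosome 2 from 122147686 to 122153083, the day 14 samples had 2446, 929 and 1698 FPKM against 560.0, 561 and 669.8 FPKM on day 10. This corresponded to 1.40 ± 0.35 (SE) on the log2 scale, with a limma adjusted p = 0.309 over 19526 genes. *H2-K1*, on chromosome 17 from 33996017 to 34000347, had 108, 107 and 125 FPKM on day 10 and 695, 147 and 386 FPKM on day 14. The difference was 1.59 ± 0.48 (SE) on the log2 scale, with a limma adjusted p = 0.347. *H2-D1*, on chromosome 17 from 35262730 to 35267499, had 205, 208 and 222 FPKM on day 10 and 1411, 309 and 781 FPKM on day 14. The difference was 1.72 ± 0.47 (SE) on the log2 scale, with a limma adjusted p = 0.319. In all 3 genes the day 10 samples lay close together. The day 14 samples spread, with replicate 1 highest and replicate 2 lowest. The two-sided exact permutation test gave p = 0.1 for each, the smallest p that 3 samples against 3 allow. Fold changes are those of FPKM + 0.1. In bulk RNA, more cells that express a gene and more RNA per cell cannot be told apart.

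The heavy chains kept a similar proportion to each other in every sample, and the light chain did not keep one to them on day 14. *H2-D1* was between 1.77 and 2.10 times *H2-K1* in the 6 samples. *B2m* was 1.79, 1.79 and 1.93 times the sum of *H2-K1* and *H2-D1* on day 10, and 1.16, 2.04 and 1.46 times on day 14. The ratio on day 14 was thus lowest in replicate 1, where the chains were highest, and above the day 10 values in replicate 2. Only 1.55% of the 75-base windows of the longest coding *H2-K1* transcript, and 7.10% of those of *H2-D1*, also occur in another gene, whereas those of *B2m* were all unique. The gene sharing most windows with *H2-K1* was *H2-D1* (1.55%), and the gene sharing most with *H2-D1* was *H2-Q1* (5.42%). Reads from shared windows could be counted in another gene. Windows were matched exactly, so these shares do not bound the uncertainty.

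**Figure D1:**
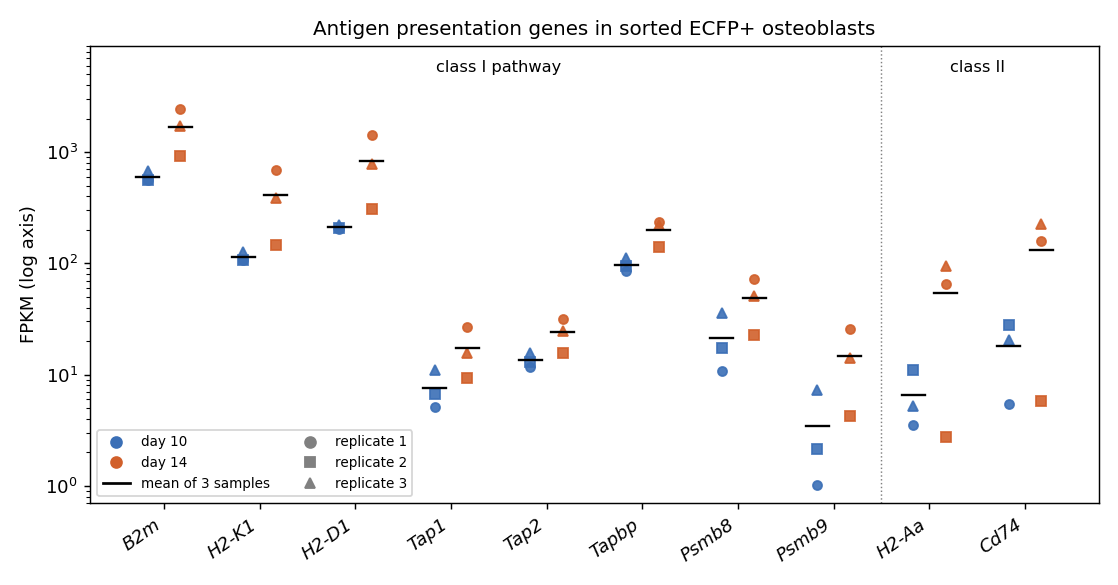
FPKM (log axis) of the 8 class I and 2 class II genes in each sample, with day 10 in blue, day 14 in orange, a marker shape for each replicate and a bar at the mean of 3 samples. In *B2m*, *H2-K1*, *H2-D1* and *Tapbp* every day 14 sample lies above every day 10 sample, while in *H2-Aa* and *Cd74* replicate 2 of day 14 lies among the day 10 samples or below them.

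Of the members that supply and load peptides, tapasin was separated between the days and the others were not. *Tapbp*, on chromosome 17 from 33915899 to 33929292, had 84.9, 94.0 and 111 FPKM on day 10 and 233, 139.7 and 222 FPKM on day 14. Its log2 fold change of 1.01 (standard error 0.22) had the smallest adjusted p of the 10 members (0.297 from limma). Of its 75-base windows, 17.5% also occur in another gene, mostly in *Gm19412*, so reads of that gene may be counted in it. *Tap1*, on chromosome 17 from 34187553 to 34197225, had 5.06, 6.69 and 10.9 FPKM on day 10 and 26.8, 9.22 and 15.5 FPKM on day 14 (log2 fold change 1.11 ± 0.41, SE, limma adjusted p = 0.422). *Tap2*, on chromosome 17 from 34203527 to 34216321, had 11.6, 13.1 and 15.5 FPKM on day 10 and 31.6, 15.5 and 24.8 FPKM on day 14 (log2 fold change 0.78 ± 0.26, SE, limma adjusted p = 0.385). Both subunits had their highest values in replicates 1 and 3 of day 14, and replicate 2 of day 14 lay below replicate 3 of day 10, for *Tap2* by a margin of 15.502 against 15.518 FPKM. *Tap2* was 2.30, 1.95 and 1.42 times *Tap1* on day 10 and 1.18, 1.68 and 1.60 times on day 14.

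The immunoproteasome subunits varied within day 10 as well as between the days. *Psmb9*, on chromosome 17 from 34181987 to 34187764, had 1.02, 2.13 and 7.30 FPKM on day 10 and 25.6, 4.23 and 14.0 FPKM on day 14. The log2 fold change was 2.13 ± 0.78 (SE, limma adjusted p = 0.422), and ran from 1.52 without replicate 1 of day 10 to 2.88 without replicate 3 of day 10. The lowest sample rested on about 5.7 estimated reads. *Psmb8*, on chromosome 17 from 34197721 to 34201454, had 10.9, 17.4 and 35.6 FPKM on day 10 and 71.7, 22.7 and 51.0 FPKM on day 14 (log2 fold change 1.21 ± 0.50, SE, limma adjusted p = 0.474). Replicate 3 of day 10 exceeded replicate 2 of day 14 in both genes. *Psmb9* and *Tap1* are transcribed in opposite directions from a shared promoter region and overlap, with 10.8% and 4.79% of their 75-base windows in common, and reads there could be counted in either gene.

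The constitutive subunits that these replace did not have higher means on day 14. *Psmb5*, the counterpart of *Psmb8*, was at 45.1 ± 8.17 and 43.1 ± 8.83 FPKM (SD, n = 3), with a log2 fold change of −0.07 ± 0.20 (SE, limma adjusted p = 0.954). *Psmb6*, the counterpart of *Psmb9*, was lower in every day 14 sample, at 136 ± 13.6 and 90.3 ± 8.78 FPKM (SD, n = 3), with a log2 fold change of −0.59 ± 0.15 (SE, limma adjusted p = 0.314). *Psmb7* had a log2 fold change of −0.10 ± 0.14 (SE, limma adjusted p = 0.875). Its counterpart *Psmb10*, the third immunoproteasome subunit, was at 8.78 ± 0.308 and 16.1 ± 4.36 FPKM (SD, n = 3), higher in every day 14 sample (log2 fold change 0.83 ± 0.21, SE, limma adjusted p = 0.310). Within a sample, *Psmb8* ranged from 0.199 to 0.887 times *Psmb5* on day 10 and was 2.10, 0.439 and 1.17 times on day 14. *Psmb9* reached at most 0.315 times *Psmb6*, and *Psmb10* at most 0.738 times *Psmb7*, each in replicate 1 of day 14. By FPKM, the constitutive subunit remained the higher one of its pair in all samples except for *Psmb8* against *Psmb5* in replicates 1 and 3 of day 14.

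**Figure D2:**
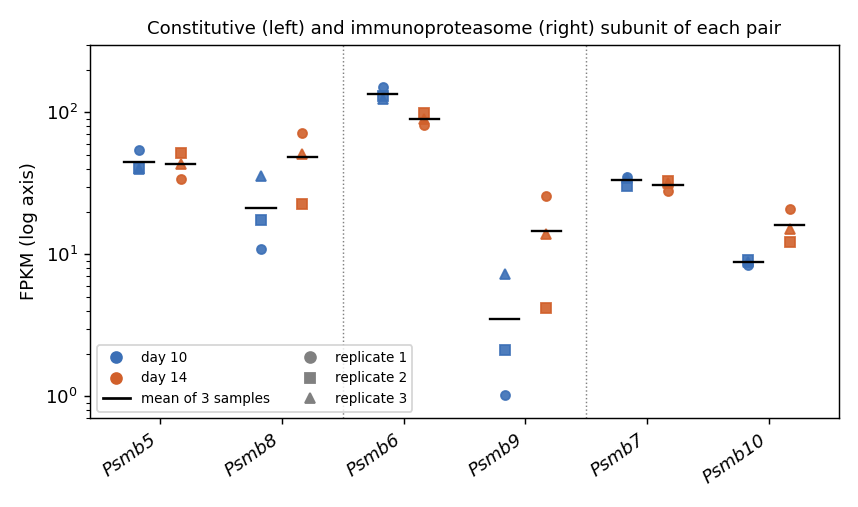
FPKM (log axis) of each constitutive catalytic proteasome subunit beside the immunoproteasome subunit that replaces it, by day (colour) and replicate (marker shape), with a bar at the mean of 3 samples. The means of *Psmb8*, *Psmb9* and *Psmb10* are higher on day 14, and those of *Psmb5*, *Psmb6* and *Psmb7* are not.

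Other class I genes were counted over lists of their known roles. Of 16 further heavy chain and class I-like genes, 0 passed the adjusted limma test, 8 had an unadjusted p under 0.05 with a higher mean on day 14 and 1 had one with a lower mean. Without replicate 2 of day 14 these counts were 9 and 1, and *H2-T23* and *H2-Q7* passed the adjusted limma test. The highest of the 16 was *Fcgrt*, the Fc receptor that binds β2-microglobulin and carries IgG and albumin, at 104 ± 15.4 and 159.7 ± 20.6 FPKM (SD, n = 3), with a log2 fold change of 0.62 (standard error 0.18). *H2-T23*, which encodes the non-classical molecule Qa-1, had 43.6, 42.7 and 50.6 FPKM on day 10 and 159.9, 67.6 and 123 FPKM on day 14 (log2 fold change 1.27 ± 0.29, SE, limma adjusted p = 0.298). *H2-M3*, which presents formylated peptides, had a log2 fold change of 1.04 (standard error 0.32), and *H2-Q4* had one of 1.67 (standard error 0.62). *H2-Q6* and *H2-Q7* had 2.40 (standard error 0.85) and 1.73 (standard error 0.72), with 21.1% and 21.7% of their windows shared with other genes, so their values are uncertain. *Hfe*, which takes part in iron sensing, and *Mr1*, which presents vitamin B metabolites, had smaller values of 0.59 (standard error 0.16) and 0.55 (standard error 0.16). The lipid-presenting *Cd1d1* had the opposite sign, with 31.2, 29.2 and 11.8 FPKM on day 10 and 11.1, 12.1 and 3.72 FPKM on day 14 (log2 fold change −1.46 ± 0.51, SE, limma adjusted p = 0.400).

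Among 14 further processing and loading genes, 0 passed the adjusted limma test, 4 had an unadjusted p under 0.05 with a higher mean on day 14 and 1 had one with a lower mean. Without replicate 2 of day 14 they were 5 and 1. The 4 with all samples were *Psmb10*, the proteasome activator gene *Psme1* (log2 fold change 0.82 ± 0.24, SE), the peptide-trimming aminopeptidase gene *Erap1* (log2 fold change 1.08 ± 0.25, SE) and the tapasin relative *Tapbpl* (log2 fold change 0.94 ± 0.34, SE). All 4 were higher in every day 14 sample than in any day 10 sample. The general chaperones of the loading complex had log2 fold changes near 0. They were 0.16 for *Calr* (standard error 0.19), 0.15 for *Canx* (standard error 0.14) and 0.13 for *Pdia3* (standard error 0.19). *Sec61a1*, a subunit of the translocation channel, was the gene with a lower mean (log2 fold change −0.56 ± 0.21, SE).

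Class II genes were far apart among the samples of day 14. *H2-Aa*, on chromosome 17 from 34282744 to 34287823, had 3.55, 10.97 and 5.22 FPKM on day 10 and 65.5, 2.74 and 94.5 FPKM on day 14. *Cd74*, on chromosome 18, had 5.42, 27.9 and 20.6 FPKM on day 10 and 158, 5.81 and 228 FPKM on day 14. In both genes replicates 1 and 3 of day 14 were above every day 10 sample, while replicate 2 of day 14 was the lowest of all samples for *H2-Aa* and the second lowest for *Cd74*. The difference on the log2 scale was 2.12 ± 1.17 (SE) for *H2-Aa*, with a limma adjusted p = 0.602 and a two-sided exact permutation p = 0.4. For *Cd74* it was 2.02 ± 1.27 (SE), with a limma adjusted p = 0.655 and a two-sided exact permutation p = 0.3. The lowest *H2-Aa* value rested on about 14.8 estimated reads.

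The level of both genes moved together, with *Cd74* between 1.53 and 3.95 times *H2-Aa* in the 6 samples. *H2-Ab1*, the β chain partner of *H2-Aa*, had 14.9, 47.4 and 34.7 FPKM on day 10 and 165, 22.4 and 208 FPKM on day 14 (log2 fold change 1.65 ± 0.79, SE, limma adjusted p = 0.541). It was higher than *H2-Aa* in every sample, by 2.198 to 8.18 times. *H2-Eb1*, another β chain, had 3.21, 5.59 and 2.81 FPKM on day 10 and 31.1, 0.922 and 36.8 FPKM on day 14. Of 13 further class II chain and loading genes, 0 passed the adjusted limma test and 3 had an unadjusted p under 0.05, each with a higher mean on day 14. Without replicate 2 of day 14, 7 of the 12 then tested had one, *H2-Ab1* had a log2 fold change of 2.67 and *H2-Eb1* passed the adjusted limma test. The 3 with all samples were *H2-DMa*, which exchanges peptides (log2 fold change 1.40 ± 0.59, SE), and the lysosomal proteases *Ctsl* (0.79, standard error 0.23) and *Ctsb* (0.71, standard error 0.21). *Ctsl* and *Ctsb* were at 159.6 FPKM or more in every sample and are active in lysosomes of most cells. *Ctss*, the protease that trims the invariant chain in antigen-presenting cells, had 3.02, 10.1 and 13.8 FPKM on day 10 and 27.4, 0.881 and 82.5 FPKM on day 14. *H2-DMb1*, the partner of *H2-DMa*, was between 12.8 and 16.5 FPKM in every sample. *H2-Oa*, *H2-Ob* and *H2-Eb2* were at most 0.401 FPKM.

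Set against each other, the classes differed in how the samples of day 14 were ordered. All 8 class I genes had their highest value in replicate 1 of day 14, and both class II genes had theirs in replicate 3 of day 14. Relative to the day 10 mean, class I genes in replicate 2 of day 14 were at 1.07 to 1.56 times, whereas *H2-Aa* was at 0.416 and *Cd74* at 0.323 times. In replicate 1 of day 14 the class I genes were at 2.36 to 7.35 times, *H2-Aa* at 9.96 and *Cd74* at 8.82 times. In replicate 3 they were at 1.85 to 4.01, 14.4 and 12.7 times. The level of *H2-K1* was 30.3, 9.73 and 24.1 times that of *H2-Aa* on day 10, and 10.6, 53.8 and 4.09 times on day 14. *B2m* was between 7.45 and 159.96 times *Cd74*, with both ends of this range on day 14. The median log2 fold change was 1.302 over the 8 class I genes and 2.07 over the 2 class II genes, beside −0.04 over all genes tested. The order of the classes rested on replicate 3 of day 14, without which the medians were 1.23 and 1.12, and they were 1.73 and 3.70 without replicate 2 of day 14. No test was made of the difference between the classes.

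Myeloid and dendritic cell markers, like *H2-Aa*, were lowest within day 14 in replicate 2, and 10 of 17 were highest in replicate 3 and 7 in replicate 1. The summed FPKM of 17 myeloid and dendritic cell markers was between 41.4 and 170.3 on day 10, and 276, 22.9 and 637 in replicates 1, 2 and 3 of day 14. A single gene, *Lyz2*, made up the larger part of the sum in replicates 1 and 3 of day 14. Of the 17, 0 had an unadjusted p under 0.05 between the days with all samples. Without replicate 2 of day 14, 11 had one, each with a higher mean on day 14 (7.01% of all genes). That sample was set apart partly by its low values in these markers, so its removal could only raise their day 14 means. *Ptprc*, which encodes the gated antigen CD45, had 0.567, 0.721 and 0.259 FPKM on day 10 and 2.99, 0.134 and 2.81 FPKM on day 14. The dendritic cell integrin gene *Itgax* had at most 0.168 FPKM on day 10 and 0.974, 0.0883 and 0.963 FPKM on day 14 (log2 fold change 1.58). Other dendritic cell markers had log2 fold changes of −0.55 (*Xcr1*), −0.16 (*Zbtb46*), 0.21 (*Clec9a*), 0.30 (*Cd209a*) and 0.30 (*Flt3*). *Lyz2* had 160.4, 6.35 and 454 FPKM on day 14. In replicate 2 of day 14, 4 of the 17 markers were at 0, namely *Fcer1g*, *Flt3*, *Xcr1* and *Adgre1*, and *H2-Aa* and *Cd74* were above 0. Summed over their lists, 7 B cell markers gave 1.81 to 2.15 FPKM on day 10, and on day 14 they gave 2.88 in replicate 1, 1.36 in replicate 2 and 0.94 in replicate 3, where *H2-Aa* was highest. The 7 T and NK cell markers summed to 2.69, 2.68 and 2.37 FPKM on day 10. They summed to 7.41, 3.41 and 8.11 FPKM in replicates 1, 2 and 3 of day 14, so replicate 2 was again the lowest of its day. Of the 6 tested, 1 had an unadjusted p under 0.05 with all samples, with a higher mean on day 14. The count was 4 of 6, each with a higher mean, when replicate 2 of day 14 was left out (7.01% of all genes). The part of these cells in the class II values was not tested.

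**Figure D3:**
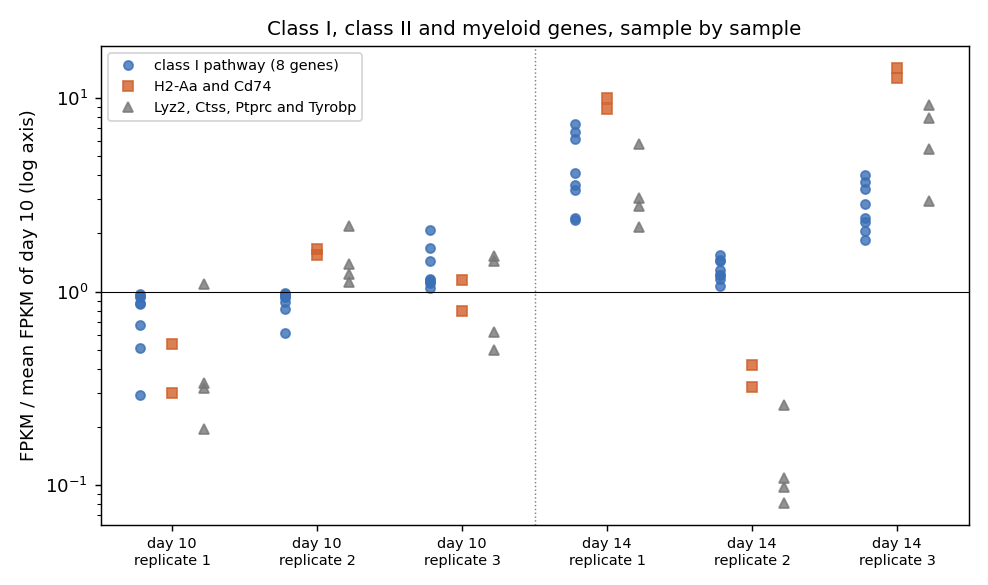
FPKM divided by the mean FPKM of day 10 (log axis) in each of the 6 samples, for the 8 class I genes (blue circles), *H2-Aa* and *Cd74* (orange squares) and the myeloid genes *Lyz2*, *Ctss*, *Ptprc* and *Tyrobp* (grey triangles). In replicate 2 of day 14 the class I genes lie between 1.07 and 1.56, and the class II and myeloid genes lie below 1.

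Genes that are known to switch on these pathways had an adjusted p above 0.05 from limma throughout. *Nlrc5*, the class I transactivator, was at 0.473 ± 0.0535 and 0.548 ± 0.483 FPKM (SD, n = 3). *Ciita*, the class II transactivator, had 0.0835, 0.223 and 0.0788 FPKM on day 10 and 0.808, 0.131 and 0.319 FPKM on day 14, resting on about 2.4 to 21.3 estimated reads. Of 8 class II transcription genes, 0 had an unadjusted p under 0.05 with a higher mean, and *Rfxap* and *Rfxank*, subunits of the X box factor RFX, had one with a lower mean (log2 fold changes −0.56 and −0.58, standard errors 0.23 and 0.24). Of 11 genes of the interferon gamma pathway, *Ifngr2* (log2 fold change 0.82 ± 0.20, SE, limma adjusted p = 0.305) and *Jak1* (log2 fold change 0.49 ± 0.20, SE, limma adjusted p = 0.459) had an unadjusted p under 0.05. *Irf1*, which encodes an interferon-regulated transcription factor, had 60.04, 29.1 and 60.1 FPKM on day 10 and 105, 84.3 and 42.5 FPKM on day 14, so that the days overlapped. Without replicate 2 of day 14, 0 of the 8 class II transcription genes, 4 of the 11 interferon gamma genes and 5 of the 7 co-stimulation genes had an unadjusted p under 0.05, among them *Cd274*, which passed the adjusted limma test. *Ifng* itself was at most 0.364 FPKM. Of 7 co-stimulation and adhesion genes, *Icam1* had the smallest p (log2 fold change 1.49 ± 0.31, SE, limma adjusted p = 0.292), and *Icosl*, a ligand of the T cell receptor ICOS, was lower in every day 14 sample (log2 fold change −1.11 ± 0.36, SE, limma adjusted p = 0.375). *Cd80* and *Cd86* reached 3.41 and 2.72 FPKM at most.

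**Figure D4:**
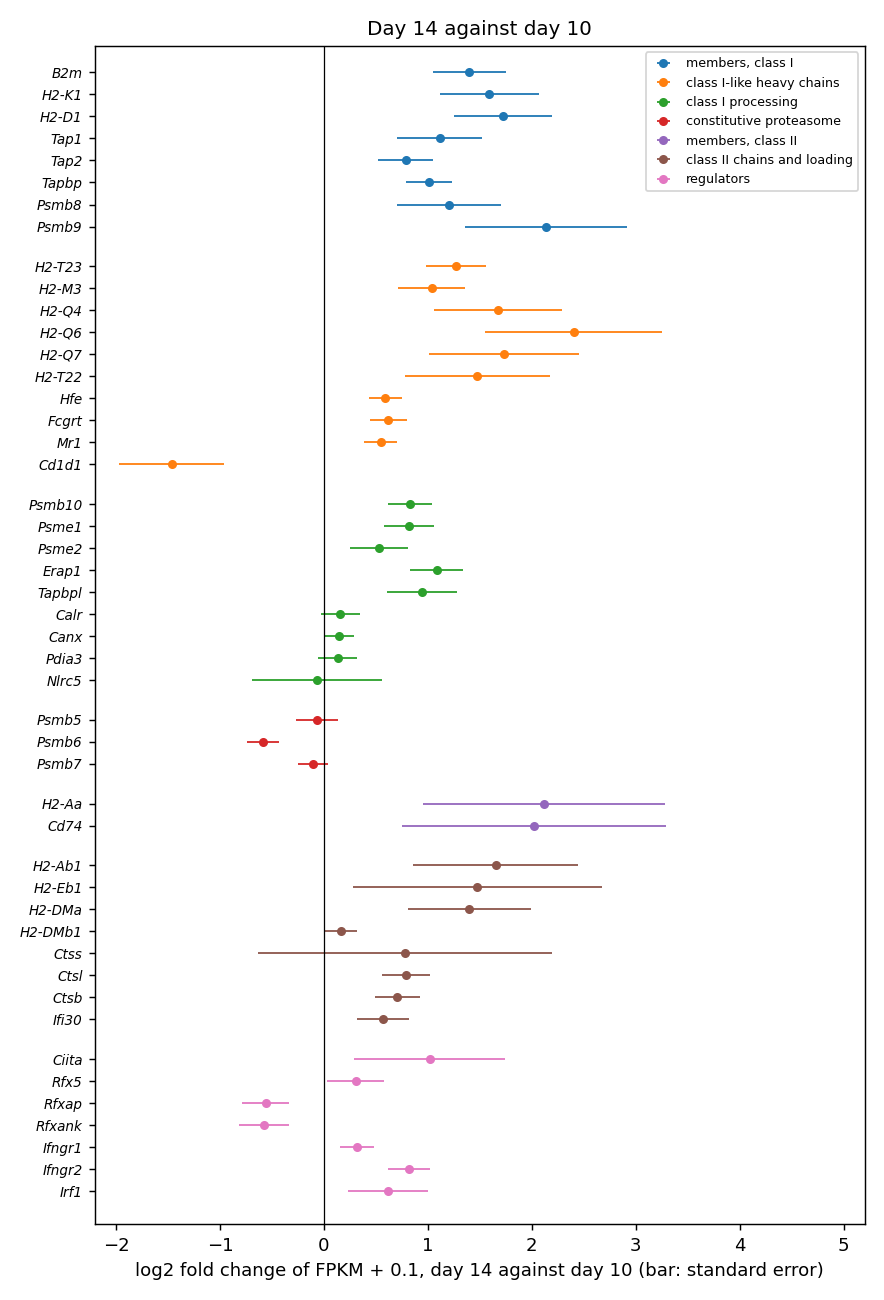
Log2 fold change of FPKM + 0.1 between day 14 and day 10 (x axis; points are estimates, bars are standard errors from limma) for the members and for genes of the lists, coloured by role. The class I members lie between 0.78 and 2.13, the class II members have the wider standard errors of 1.17 and 1.27, and *Psmb5*, *Psmb6* and *Psmb7* lie between −0.59 and −0.07.

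Most members share a chromosomal neighbourhood, whereas *B2m* lies on chromosome 2 and *Cd74* on chromosome 18. *H2-K1* and *H2-D1* bound an interval of chromosome 17, from 33996017 to 35267499, that holds 7 of the 10 members, and *Tapbp* lies beside it. The interval holds 55 other tested genes outside the lists and the H2 genes, which had a median log2 fold change of −0.00438. Of these, 7 (12.7%) were over 2-fold higher, against 5.25% of all genes. In every day 14 sample 4 (7.27%) were higher, against 7.59%, and 3 (5.45%) were lower, against 6.67%.

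The genes most like each class over the 6 samples were found by Pearson's r of log2(FPKM + 0.1) with the class mean, among 11152 genes with a mean of at least 1 FPKM. With so many genes and 6 samples that share the day, high values are common, and r is given as a description. The genes nearest to class I were *Cxcl12* (r = 0.996), *Cxcl16* (r = 0.995), *Mtmr9* (r = 0.995), *Adc* (r = 0.995) and *Cygb* (r = 0.993). *Cxcl12*, a chemokine gene of bone marrow stromal cells, had 114, 134 and 196 FPKM on day 10 and 549, 218 and 379 FPKM on day 14. Nearest to class II were *Cyba* (r = 0.998), *AI607873* (r = 0.994), *Fastkd3* (r = 0.991), *H2-Ab1* (r = 0.990) and *Zfp809* (r = 0.988). *Cyba*, which encodes a subunit of the phagocyte NADPH oxidase, had 51.1, 68.6 and 62.6 FPKM on day 10 and 96.8, 52.3 and 108 FPKM on day 14. Its highest and lowest samples of day 14 were those of *H2-Aa*.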

How the data were processed

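RNA-seq of sorted ECFP+ OBs was analysed, with 3 samples on each of day 10 and day 14. Per the labels and the study's methods, single-end reads of 75 bases were aligned by the authors with TopHat2 2.0.13 on mm10, helped by Bowtie2 2.2.3 and SAMtools 0.1.19. They deposited FPKM values, 1 per gene and sample, that the authors made with Cufflinks 2.2.1; gene annotation, strand setting and treatment of multi-mapped reads are not given in the sources used here. In 1 file, 25 symbols that had become dates were restored by position.

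Log2(FPKM + 0.1) was compared between the days with limma 3.58.1 in R 4.3.3 (eBayes with a mean-variance trend), with Benjamini-Hochberg adjustment over the 19526 genes with a mean above 0.1 FPKM. The fit was also run on simulated data with planted changes larger than those of most members. That run does not cover changes of their size. For single members a two-sided exact permutation test was added, with a smallest possible p of 0.1. Depth was estimated from the steps between low FPKM values of 1977 single-transcript genes, where between 74.3% and 79.2% of values lay within 0.1 of a whole read; these floors cover counting error only. Alternatives changed the pseudocount, filter, scaling, variance trend, replicate block and samples. Deviations of same-numbered samples correlated across genes at r = 0.0580, −0.00584 and 0.0887, so the numbers were not taken to pair samples.

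The members and gene lists were chosen with earlier results of these data known. The genes named are the members, listed genes with the highest mean, an unadjusted p under 0.05 or a role beside a member, and the 5 genes most like each class. Positions are from GENCODE vM21, and promoter sequences from RefSeq on GRCm38.p6, where 8 of the 10 members matched. A gene of the interferon gamma list is not reported here.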

Additional observations from a re-analysis of the deposited data

How the results depend on the processing

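The log2 fold changes of the 10 members were positive in all 130 values over 13 alternatives. An adjusted p of 0.05 from limma was passed in 4 (*H2-Aa*, *H2-D1*, *H2-K1* and *Tapbp*). All 4 were without replicate 2 of day 14, the lowest sample of its day for every member. The number of members with an unadjusted p under 0.05 was 4 without the mean-variance trend and 4 to 10 with 1 sample left out, being 4 without replicate 1 of day 10 or of day 14. Members over 2-fold numbered 6 to 10 with 1 sample left out, and those with separated days 4 to 10. The median log2 fold change was 0.98 to 1.73 for class I and 1.12 to 3.70 for class II with 1 sample left out, class II being the lower without replicate 3 of day 14. Over all genes, those over 2-fold numbered 514 with a pseudocount of 1, 845 with a mean above 1 FPKM and 2617 to 4022 (without replicate 1 of day 14) with 1 sample left out, against 2665. Genes with an adjusted p under 0.05 numbered 3 to 76 (without replicate 2 of day 14) with 1 sample left out. In the fit with a replicate block, 2 genes passed at that level, and 8 members had an unadjusted p under 0.05 (adjusted p = 0.234 for *H2-K1* from limma). In the pairing check 1 of the 3 correlations was negative, and the block changed no count of members. It moved the genes with an unadjusted p under 0.05 from 1954 to 2130. The cause of these differences was not tested.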
